A study of Drosophila melanogaster with 384 samples.

Results

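Synaptic and other neuronal genes, 8 of the 14219 features in the count table, were followed cell by cell in larval brain neuroblasts: Syt1, nSyb, Syx1A, brp, Cadps, CadN, futsch and Rbp6. They were chosen by symbol, and each symbol matched 1 row. Neuroblasts are the stem cells of the fly nervous system, and they divide asymmetrically to make the cells that become neurons. Single cells were sorted from dissociated central brains of wandering third-instar Drosophila melanogaster larvae aged 6 to 7 days and reared at 29 °C. Both groups carried UAS-Dcr2, which strengthens RNA interference, and inscGal4, UAS-CD8::GFP, which drives transgenes and a membrane GFP in neuroblasts. The control group added sh-mCherry (BL35785), a hairpin against a protein that flies lack, and the tumor group added sh-brat (BL34646), a hairpin against the growth regulator brat. Control cells came from 5 pooled brains and tumor cells from 3, and the labels do not say from which brain a cell came.

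In a mature synapse a vesicle is docked at the active zone, primed, and fused with the plasma membrane when calcium enters. Fusion is carried out by SNARE proteins, nSyb on the vesicle and Syx1A on the plasma membrane, with Syt1 as the calcium sensor. The active zone itself is scaffolded by brp, and Cadps, the fly CAPS protein, primes vesicles and in particular dense core vesicles. CadN is the neuronal cadherin of axons and dendrites, futsch is the fly relative of the microtubule-associated protein MAP1B, and Rbp6 is an RNA-binding protein of the Musashi family. Neuroblasts form no synapses, and these genes are known mainly from the neurons that descend from them.

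Each group is 1 sample in the statistical sense, so no test was possible and no p-value is given. The library numbers fall into 4 runs of 96 with the same 96 index pairs, taken here as 4 plates, with plates 1 and 2 control and plates 3 and 4 tumor. Plates therefore cannot be told apart from groups, and the 4 tumor-over-control pairs of plates are the visible spread. Cells with at least 100000 reads and 1000 genes were kept, 89 and 91 on the control plates and 93 and 92 on the tumor plates, with a median depth of 1507074.5 reads in control and 1122672 in tumor cells. The target of the hairpin, brat, stood at 312 and 374 CPM (reads of the gene per 1000000 reads of the summed cells) on the control plates and at 93.6 and 81.9 CPM on the tumor plates. The neuroblast genes dpn and mira each had a read in every kept control cell, and in 100% and 97.8% of kept tumor cells. The summed level of 8 neuroblast markers had a median of 4245 CPM over control cells and 8155 CPM over tumor cells. Under 100 CPM of dpn and mira together were 3 control cells, all on plate 1, and 12 tumor cells. All intervals below are 95% intervals for counting error only, since reads without molecular identifiers include PCR copies.

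The 8 genes fell into 3 patterns of level and share. Syx1A and Syt1 had reads in nearly every cell of both groups. Cadps had a few reads in most control cells and in few tumor cells. The other 5, nSyb, brp, CadN, futsch and Rbp6, were at 0 in most cells, and a handful of cells held most of their reads. Divided by exonic length, the pooled control level was 52.1 CPM per kilobase for Syx1A, 2.35 for Syt1, 1.896 for Cadps, 1.498 for Rbp6, 0.815 for nSyb, 0.536 for CadN, 0.116 for futsch and 0.0461 for brp.

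**Figure D1:**
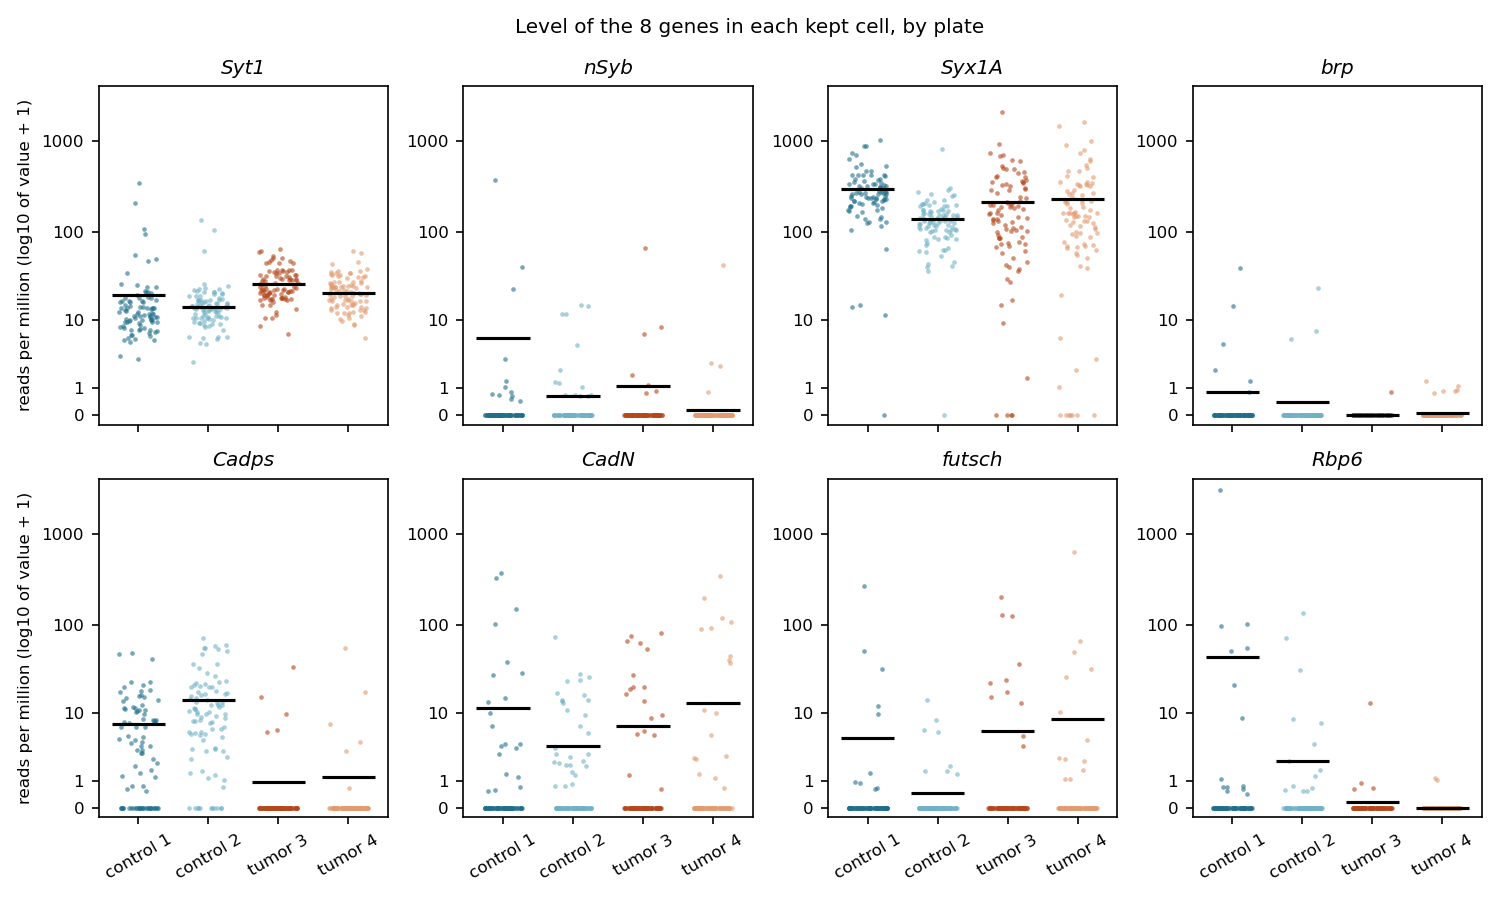
Level of each gene in each kept cell, in CPM on a log10(value + 1) axis, with 1 point per cell and 1 column per plate (control 1 and 2, tumor 3 and 4). Black bars mark the level of the summed reads of the plate. Syt1 and Syx1A form bands, Cadps forms a band on the control plates only, and for nSyb and Rbp6 on plate 1 the bar lies far above almost all points.

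Of the 8 genes, 5 reached a mean of 5 CPM over the groups (Syt1, Syx1A, Cadps, CadN and Rbp6), and futsch lay just under it at 4.95 CPM. None of the 5 was at least 2-fold higher in tumor cells in the pooled reads and in all 4 plate pairs, where 6.9% of the 6450 features at this level were. Cadps and Rbp6 were at least 2-fold lower by the same rule, 2 of 5 genes, where 7.57% of features were. Both reached the minimum level only through the control group, so this count leans on the filter and nothing is read from it against the other features. The call of Rbp6 ended without 1 control cell, plate 1 well 32, since its level then fell under the minimum. The median log2 ratio of tumor over control was 0.03 for these 5 genes and -1.15 for all 8, and it was -0.00 for the 6450 features. The median of all 8 turned to 0.39 without plate 1 and was -0.053 without the cells under 100 CPM of dpn and mira.

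**Figure D2:**
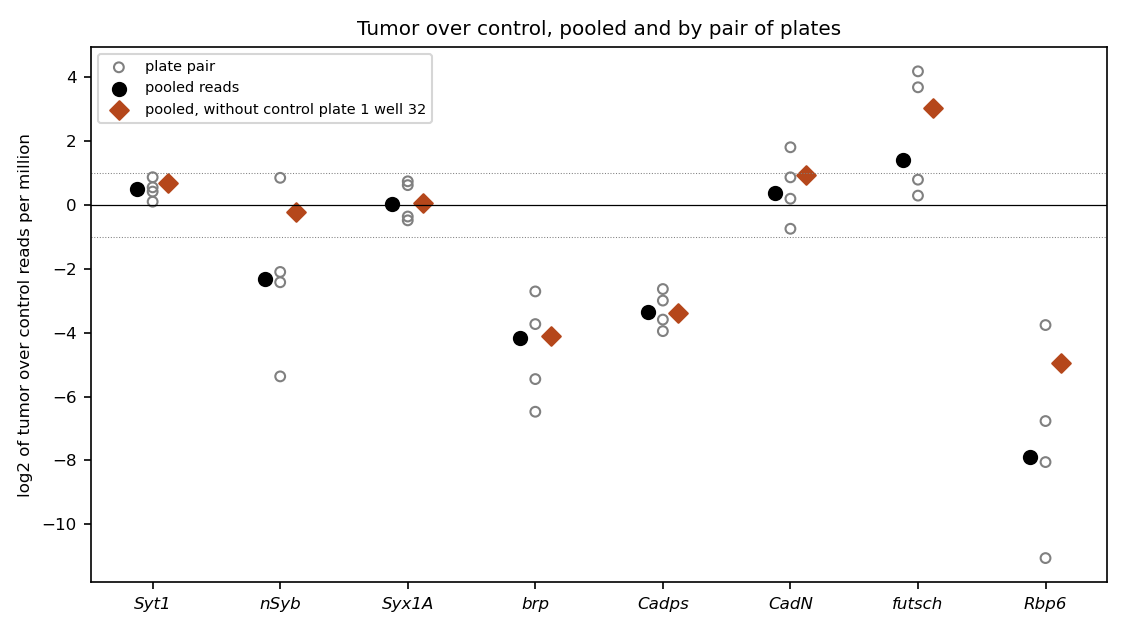
The log2 ratio of tumor over control CPM for each gene, from pooled reads (black), for each of the 4 pairs of plates (open circles) and pooled without control plate 1 well 32 (diamonds). Dotted lines mark a 2-fold difference. All 4 pairs of Cadps lie between -3.95 and -2.63, while those of nSyb, Syx1A and CadN lie on both sides of 0.

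Syx1A, the plasma membrane SNARE (FBgn0013343, chromosome arm 3R, 24101600 to 24105763, minus strand), was the most abundant of the 8 genes. Its level was 296 CPM (293 to 299) and 137.6 CPM (135.6 to 139.6) on the control plates, and 212 CPM (210 to 215) and 231 CPM (228 to 234) on the tumor plates. The 2 control plates thus differed by 2.15-fold, and the tumor plates lay between them. Pooled levels were 217 CPM in control and 221 CPM in tumor cells, a log2 ratio of 0.03, with plate pairs from -0.48 to 0.75. A read was found in 88 of 89 and 90 of 91 control cells, and in 89 of 93 and 85 of 92 tumor cells. After thinning each cell to 100000 reads the share was 98.3% (95.2 to 99.7) in control and 91.9% (86.98 to 95.4) in tumor cells. The median share of features of like level was also lower in tumor cells. Features within 0.32 log2 units of its pooled level had a median unthinned share of 98.3% in control and 89.2% in tumor cells. Syx1A stood at 98.9% and 94.1%. Of the 373 such features at its tumor level, 305 had a lower share of tumor cells than Syx1A. The median number of genes per cell was 5801.5 in control and 3651 in tumor cells.

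Syx1A was spread more unequally over the tumor cells than over the control cells. Whether this also held for other features of its level was not tested. On plates 1 to 4 the 10th percentile of cells was 128.6, 62.8, 31.3 and 3.41 CPM, and the 90th percentile was 481, 213, 498 and 496 CPM. The tumor plates thus held more cells of low level, with an upper end like that of plate 1. The ratio of variance to mean over cells, at 100000 reads per cell, was 11.2 and 6.00 on the control plates and 29.7 and 33.4 on the tumor plates. The 11 tumor cells without a Syx1A read had 319362 to 1212602 reads in total, 10 of the 11 were type II-like, and none was under 100 CPM of dpn and mira. Type II-like cells, here those in which 3 or more of the type II lineage genes pnt, btd, tll and Sp1 had 5 reads each, numbered 2 and 6 on plates 1 and 2, and 83 and 74 on plates 3 and 4.

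The cells with the most Syx1A reads differed in their markers. Well 67 of plate 4 held 1479 Syx1A reads with 1364 dpn and 1879 mira reads and 0 elav reads, and well 63 held 1330 with 769 dpn, 1758 mira and 0 elav reads. The gene elav encodes the RNA-binding protein used as the standard marker of neurons. Its relative fne, also among the neuron markers used here, had 339 reads in well 67 and 326 reads in well 63. On plate 1 the highest was well 32, with 1847 Syx1A, 1916 elav, 3 dpn and 2 mira reads, and on plate 3 it was well 73, with 849 Syx1A, 390 elav, 2 dpn and 2 mira reads. The 447 exonic bases that Syx1A shares on the same strand with eIF4EHP could have been counted for either gene, and the rule used was not given in the sources used here. Within plates 1 to 4 the reads of both genes over cells had a Spearman correlation of 0.24, 0.22, -0.13 and 0.21, a description over cells that share depth.

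Syt1, the calcium sensor of release (FBgn0004242, arm 2L, 2772327 to 2799979, minus strand), had at least 4 reads in every kept cell of both groups. Its median was 19 and 20 reads per cell on the control plates and 29 and 21 reads on the tumor plates. In CPM the plates stood at 19.5 (18.7 to 20.3), 14.3 (13.6 to 14.9), 26.1 (25.2 to 27.1) and 20.99 (20.1 to 21.9). Both tumor plates were above both control plates, by log2 ratios of 0.11 to 0.87, and the pooled log2 ratio of 0.49 was a 1.40-fold higher level. Without plate 1 well 32, which held 14.0% of the control reads, the pooled log2 ratio was 0.70. Counted as mean reads per cell, without scaling to depth, the log2 ratio was 0.09.

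Few reads in every cell was the pattern of Syt1, and few features of like level showed it. Among features within 0.32 log2 units of its pooled level, the median share of cells with a read was 66.1% in control and 34.1% in tumor cells, against 100% for Syt1 in both. Of those features, 646 of 647 in control and 729 of 730 in tumor cells had a lower share. The ratio of variance to mean at 100000 reads per cell was 1.10 and 1.27 on the tumor plates. Thinning to few reads draws this ratio toward 1, the value of random sampling, so it does not show a constant level. From the 10th to the 90th percentile, cells ran from 16.6 to 45.7 CPM on plate 3 and from 12.2 to 34.8 CPM on plate 4. On the control plates the ratio was 11.3 and 2.56, and there 5 cells were over 100 CPM. Well 32 of plate 1 had 621 Syt1 reads (348 CPM) and was by far the highest. At 100000 reads a Syt1 read remained in 92.4% (87.6 to 95.8) of tumor and 69.4% (62.2 to 76.1) of control cells. Control cells were deeper and Syt1 reads followed depth only weakly, as given below, so thinning removed a larger part of them. The gap between these shares is thus not free of the difference in depth.

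The number of Syt1 reads followed the number of reads in the cell only weakly. The Spearman correlation of both within plates 1 to 4 was 0.18, 0.08, 0.15 and -0.02, where features seen in 90% or more of the cells had medians of 0.39, 0.40, 0.35 and 0.36. On plate 3 the shallowest 31 cells had a median of 29 Syt1 reads and 36.01 CPM, and the deepest 31 cells had 31 reads and 21.7 CPM. On plates 2 and 4 the reads were likewise alike, with medians of 19 and 19.5 in the shallowest and deepest cells of plate 2 and of 20.5 and 19.5 in those of plate 4. On plate 1 they were 16 and 22 reads, with 14.2 and 11.96 CPM, so there deeper cells had more reads and a level in CPM closer to that of the shallow cells.

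A like number of Syt1 reads was found in wells that failed the depth filter. Wells 80 and 88 of each plate, 8 wells with 13233 to 42253 reads in total, held 12, 26, 13 and 15 Syt1 reads on the control plates and 22, 15, 34 and 16 on the tumor plates. Their median of 15.5 reads compares with 22 reads in the kept cells, although the kept cells were far deeper. Summed, these wells stood at 956 CPM (810 to 1120), 48.1 times the level of the kept cells. Syt1, nSyb, brp and futsch were at least 2-fold higher there than in the kept cells, where 3.75% of features were. These were 4 of the 7 genes with a mean of 5 CPM over these wells and the kept cells. But nSyb, brp and futsch had 12, 7 and 2 reads in all and reached that mean only through these wells. In the kept cells they stood at 2.16, 0.362 and 4.67 CPM. This count thus leans on the filter, and nothing is read from it against the other features. By a rule without a minimum level, a Poisson interval above that of the kept control cells, Syt1, nSyb and brp lay higher in these wells, where 1.91% of all features did. The other 11 wells left out held 0 to 8 Syt1 reads each. The content of wells 80 and 88 was not given in the sources used here, and the part of such reads in the Syt1 level of the kept cells was not tested.

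**Figure D3:**
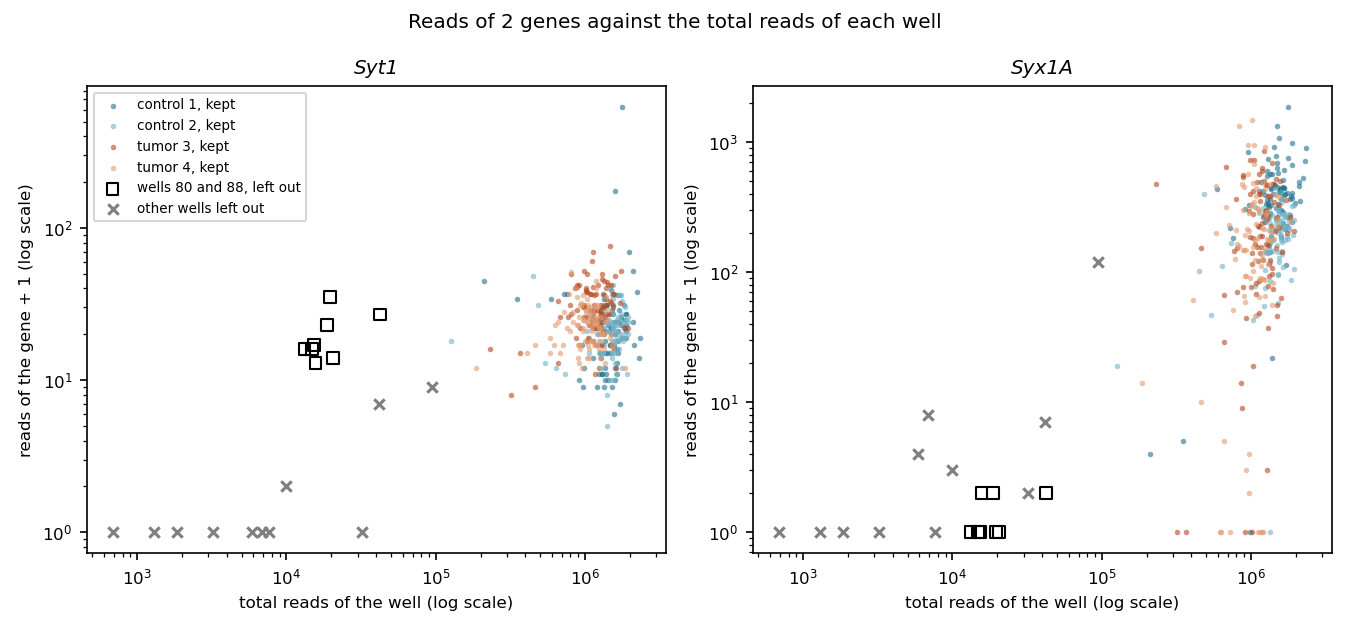
Reads of Syt1 (left) and Syx1A (right), plus 1, against the total reads of each well, both axes on a log scale. Dots are kept cells colored by plate, squares the 8 wells 80 and 88, and crosses the 11 other wells left out. The squares reach the height of the kept cells for Syt1, with 12 to 34 reads, and stay at 0 or 1 read for Syx1A.

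Likeness across cells was taken as the mean over groups of the Pearson correlation of log2(CPM + 10) centred by plate, among 5510 features detected in 25% or more of the cells of each group. The 3 features most like Syt1 were CG43110 at 0.77, FBgn0261451 at 0.76 and fmt at 0.74. Each had a read in 100% of the cells of both groups, and each was at least 59 times higher in wells 80 and 88 than in the kept cells, up to 175.2 times for FBgn0261451. For Syx1A the closest 3 were weak, Rho1 at 0.30, chic at 0.29 and ZAP3 at 0.27, and all were lower in wells 80 and 88 (0.07-fold for Rho1 and ZAP3, 0.04-fold for chic). Syx1A itself was at 0.09-fold there, with 3 reads over the 8 wells.

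Cadps, the priming factor of dense core vesicles (FBgn0053653, chromosome 4, 1230837 to 1271759, plus strand), differed most clearly in the share of cells. Its level was 7.44 CPM (6.98 to 7.92) and 14.4 CPM (13.8 to 15.1) on the control plates, and 0.935 CPM (0.762 to 1.14) and 1.20 CPM (0.993 to 1.44) on the tumor plates. The groups did not overlap, and the pooled level was 10.3-fold lower in tumor cells, a log2 ratio of -3.36. A read was present in 59 of 89 and 80 of 91 control cells, and in 5 of 93 and 6 of 92 tumor cells. At 100000 reads per cell the shares were 34.8% (25.04 to 45.7) and 56.04% (45.2 to 66.4) against 4.30% (1.18 to 10.6) and 3.26% (0.678 to 9.23).

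Many control cells carried a little Cadps. The control cells with a read had a median of 15 reads, 46 and 71 cells of the control plates had at least 5, and the highest cell stood at 71.2 CPM. The top 5% of control cells held 26.04% of the summed CPM, and 26 cells held 50% of it. Among 464 features at the same pooled level, the median share of control cells with a read was 55.3%, below the 77.2% of Cadps, and 435 had a lower share. In control cells without an elav read Cadps was rarer, in 2 of 8 cells on plate 1 and 0 of 2 on plate 2, against 57 of 81 and 80 of 89 cells with an elav read.

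Tumor cells with Cadps numbered 11, and 2 of them held most of the reads. Well 76 of plate 4 had 74 reads and well 16 of plate 3 had 44, together 54.4% of the 217 tumor reads. Both had 3 dpn reads, with 16 and 0 mira reads and 1641 and 2161 elav reads. Without the cells under 100 CPM of dpn and mira, the log2 ratio was -4.40 in place of -3.36. Among type II-like cells, Cadps was read in all 8 control cells, with 6 to 30 reads each, and in 5.10% (2.23 to 9.79) of tumor cells. Type II-like cells stood at 10.4 CPM (8.65 to 12.5) in control and 0.436 CPM (0.344 to 0.546) in tumor, so the lower level was also seen within that class.

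**Figure D4:**
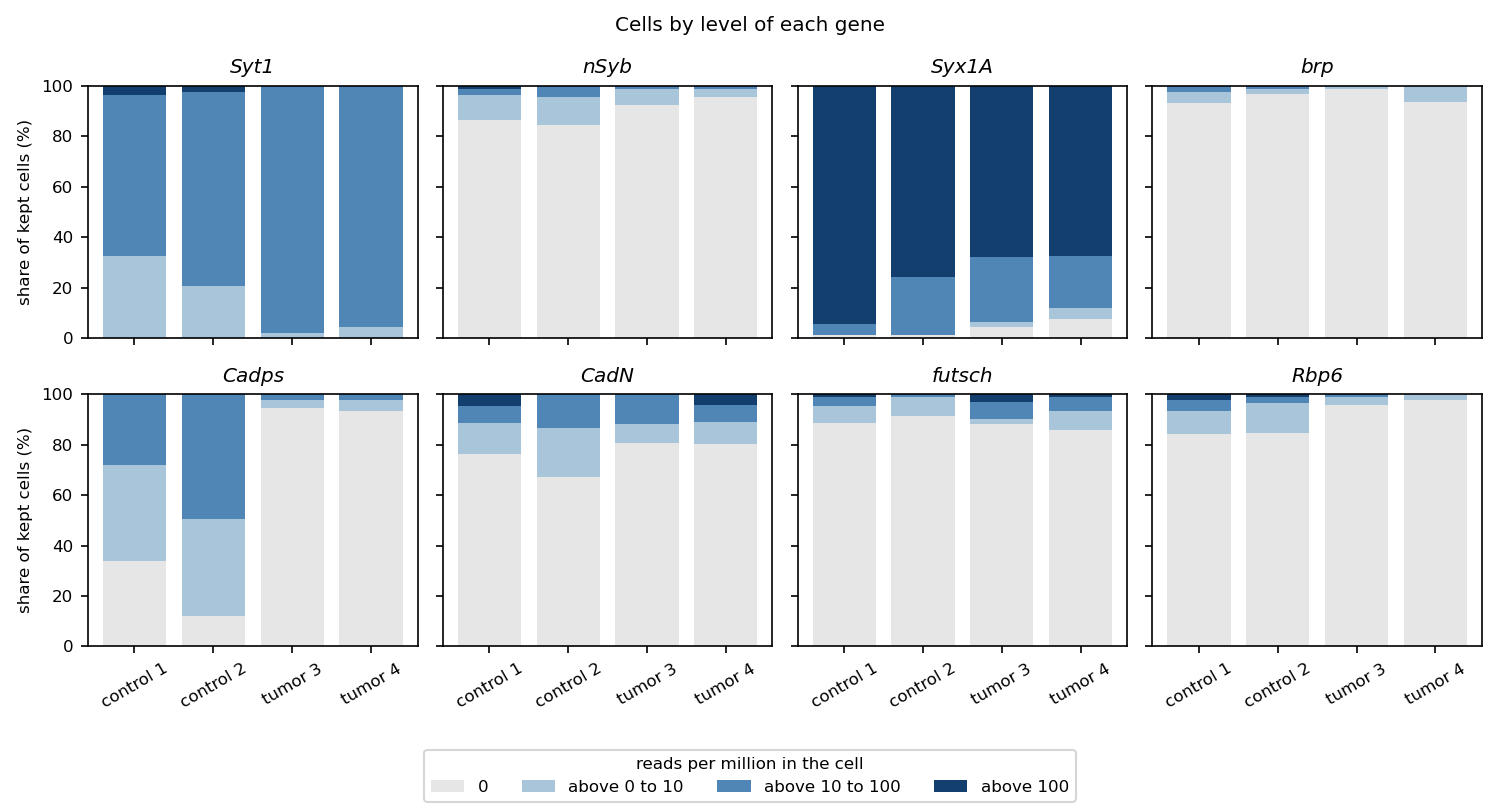
Share of kept cells, in percent, in 4 classes of level for each gene and plate (0, above 0 to 10, above 10 to 100 and above 100 CPM). Most control cells have Cadps above 0 and 88 of 93 and 86 of 92 tumor cells are at 0, while nSyb, brp, futsch and Rbp6 are at 0 in most cells of every plate.

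Rbp6, the Musashi family protein (FBgn0260943, arm 3L, 17058774 to 17238212, minus strand), had the widest pooled ratio, and 1 cell set its size and its call. Its level was 44.3 CPM (43.1 to 45.4) and 2.26 CPM (2.01 to 2.53) on the control plates and 0.167 CPM (0.0988 to 0.263) and 0.0207 CPM (0.00251 to 0.0749) on the tumor plates. Plate 1 well 32 held 5368 of the 6150 control reads, 87.3%. Without it the pooled control level was 2.99 CPM (2.79 to 3.21) in place of 23.4, and the log2 ratio was -4.94 in place of -7.90, with the mean of the groups under 5 CPM. Within type II-like cells the ratio turned to 0.31, from 1 read in the 8 control cells and 19 reads in the tumor cells. In all, 28 control cells had a read and 12 had at least 5.

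In tumor cells Rbp6 was close to absent. A read was found in 4 cells of plate 3 and 2 of plate 4, with 15 reads in well 5 of plate 3 and 1 read in each of the other 5. The share with a read was 15.6% (10.6 to 21.7) in control and 3.24% (1.20 to 6.92) in tumor, and 7.22% (3.90 to 12.03) and 0.541% (0.0137 to 2.97) at 100000 reads per cell. Features at the level of Rbp6 in control cells had a median share of 74.4%, and 771 of 778 had a higher share than Rbp6. Next to well 32 the highest control cells by reads were well 84 of plate 2, with 136.3 CPM of Rbp6 and 932 of dpn, and well 96 of plate 1, with 97.3 CPM of Rbp6 and 1213 of dpn. Rbp6 shares 31 exonic bases with an antisense RNA on the other strand.

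nSyb, the vesicle SNARE (FBgn0013342, arm 3L, 1630348 to 1637752, minus strand), had most of its control reads in the same well. Its level was 5.99 CPM (5.58 to 6.42), 0.620 CPM (0.492 to 0.770), 1.12 CPM (0.930 to 1.34) and 0.145 CPM (0.0793 to 0.243) on plates 1 to 4, so the groups overlapped. Plate 1 well 32 held 671 of 873 control reads, and without it the pooled log2 ratio was -0.23 in place of -2.33. A read was found in 14.4% (9.66 to 20.4) of control and 5.95% (3.01 to 10.4) of tumor cells, and in 4.44% (1.94 to 8.57) and 2.16% (0.592 to 5.44) at 100000 reads. Wells 80 and 88 held 0 to 5 nSyb reads each, and 6 of the 8 had one.

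Some nSyb reads came from cells with strong neuroblast markers. Well 30 of plate 1 had 65 nSyb reads with 924 dpn, 1954 mira and 0 elav reads, and well 24 of plate 3 had 97 with 1461 dpn, 1115 mira and 68 elav reads. These were the second highest control cell and the highest tumor cell. The latter held 71.9% of the tumor reads of nSyb.

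brp, the active zone scaffold (FBgn0259246, arm 2R), was the scarcest of the 8. Its level was 0.824 CPM (0.677 to 0.994) and 0.405 CPM (0.304 to 0.530) on the control plates, and 0.00926 CPM (0.000234 to 0.0516) and 0.0622 CPM (0.0228 to 0.135) on the tumor plates. Of the 9 control cells with a read, the highest were well 95 of plate 1 with 72 reads and well 47 of plate 2 with 34, and dpn stood at 1345 and 802 CPM in them. Another 7 cells, all tumor, held 1 read each, so the share with a read was 5.00% (2.31 to 9.28) in control and 3.78% (1.54 to 7.64) in tumor, while cells with at least 5 reads numbered 6 and 0. The mean level of 0.325 CPM was below the minimum for a call, and wells 80 and 88 of the tumor plates held 7 brp reads, as many as all kept tumor cells together.

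CadN, the neuronal cadherin (FBgn0015609, arm 2L, 17647053 to 17778340, minus strand), was at 11.6 CPM (11.03 to 12.2) and 3.79 CPM (3.47 to 4.14) on the control plates and at 6.94 CPM (6.45 to 7.45) and 13.3 CPM (12.6 to 14.1) on the tumor plates. The groups overlapped, with plate pairs from -0.74 to 1.81 and a pooled log2 ratio of 0.37. Cells with a read numbered 21 and 30 on the control plates and 18 and 18 on the tumor plates, and the share at 100000 reads was 13.9% (9.19 to 19.8) and 12.97% (8.49 to 18.7). Wells 32 and 62 of plate 1 held 667 and 498 reads, 57.4% of the control total, and without both the log2 ratio was 1.58.

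The tumor reads of CadN lay in cells with neuroblast markers. Cells with at least 100 CPM of dpn and mira held 99.9% of the tumor reads and 40.0% of the control reads. The highest were wells 32, 48 and 44 of plate 4, with 346, 196.9 and 117.9 CPM of CadN, and dpn at 2143, 1283 and 1272 CPM. Tumor cells with a read had a median of 26.5 reads, where control cells with a read had 8. Without cells under 100 CPM of dpn and mira the log2 ratio was 1.76, and the level was 3.14 CPM (2.92 to 3.36) in control and 10.6 CPM (10.1 to 11.1) in tumor cells.

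futsch, the MAP1B relative (FBgn0259108, chromosome X, 1409069 to 1453686, plus strand), stood at 4.91 CPM (4.54 to 5.30), 0.467 CPM (0.357 to 0.599), 6.03 CPM (5.58 to 6.51) and 8.53 CPM (7.95 to 9.13) on plates 1 to 4. Both tumor plates were above both control plates, by log2 ratios of 0.30 to 4.19, so a 2-fold difference was not held by all pairs. Well 32 of plate 1 held 482 of 710 control reads, and the pooled log2 ratio was 3.05 without it and 1.42 with it. The share with a read was 10.0% (6.04 to 15.3) in control and 12.97% (8.49 to 18.7) in tumor.

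In the tumor the highest futsch cells had neuroblast markers. Well 64 of plate 4 had 595 reads, 40.4% of the tumor total, with 2003 dpn and 1073 mira reads. It also had 269 elav and 358 fne reads, and 892 reads of pros, listed here with the genes of young neurons and ganglion mother cells. Reads of pros were not limited to cells with elav. Wells 30 and 36 of plate 1 had 323 and 1021 pros reads, with 1954 and 951 mira and 0 elav reads. Well 85 of plate 3 had 265 reads with 3218 dpn and 2236 mira and 0 elav reads, and 2 cells held 50% of the summed CPM. At least 5 reads were found in 17 tumor cells and 9 control cells. Gr2a, which shares 1186 exonic bases with futsch on the same strand, had 0 reads in kept control and 14 in kept tumor cells.

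**Figure D5:**
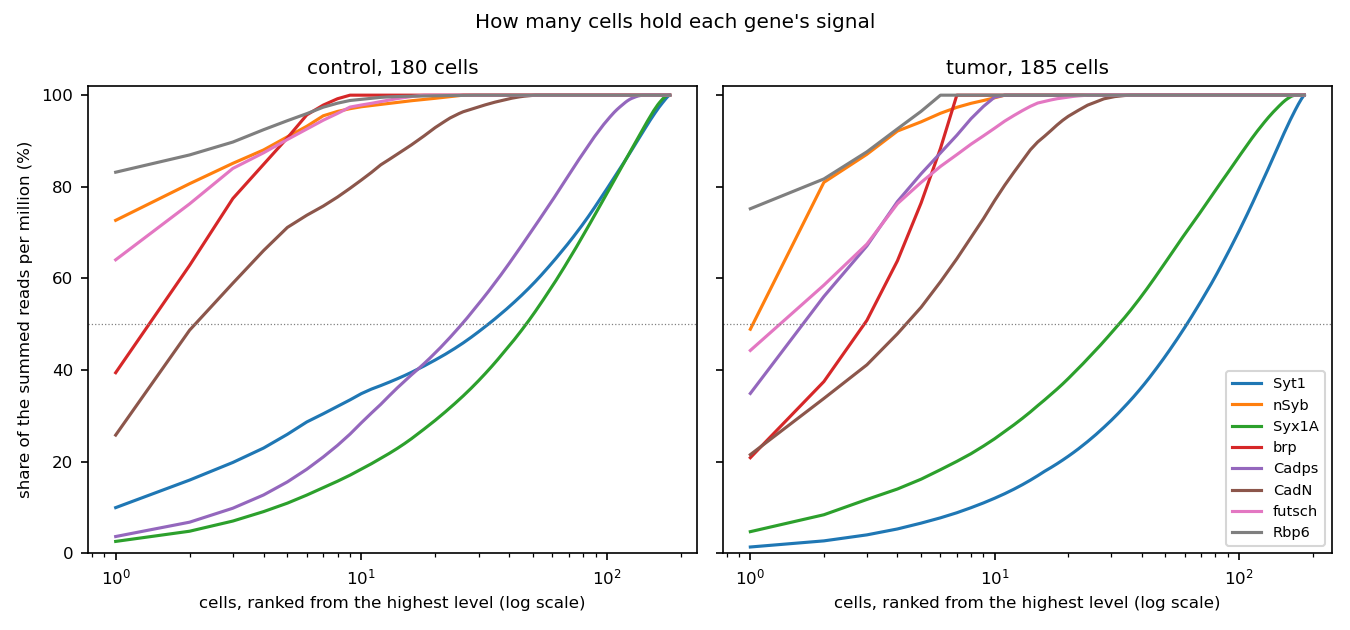
Share of the summed CPM of each gene, in percent, held by the cells ranked from the highest, for the kept control cells (left) and tumor cells (right), with ranks on a log scale. In control cells 1 cell holds over 50% for Rbp6, nSyb and futsch, while 47 cells are needed for Syx1A, 33 for Syt1 and 26 for Cadps.

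In plate 1 well 32 all of the genes were found together. It was the only kept cell with at least 5 reads of all 8 genes, and its 8 neuroblast markers summed to 9.52 CPM, the lowest of all kept cells. It held 1916 elav, 1506 fne, 711 nerfin-1 and 10467 pros reads, all listed here with the genes of young neurons and ganglion mother cells. Well 62 of plate 1 had at least 5 reads of 7 of the 8 genes, with 3837 elav, 6445 Hey, 25 dpn and 5 mira reads, and no nSyb read. Well 96 of plate 1, the kept cell with the most genes detected (7758), also had 7 of the 8 genes, with 2268 dpn and 3200 mira reads. It was the last well of its plate. The last wells of plates 3 and 4 were the deepest kept cells there, with 1960187 and 1849417 reads. The 12 tumor cells under 100 CPM of dpn and mira had 2 nSyb, 0 brp, 3 CadN, 6 futsch and 0 Rbp6 reads in all, although well 86 of plate 4 among them had 3261 elav and 2807 nerfin-1 reads.

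Outside such wells the genes seldom met in a cell. Counting nSyb, brp, CadN, futsch and Rbp6, at least 1 of the 5 had 5 reads in 28.9% (22.4 to 36.1) of control cells and 24.3% (18.3 to 31.2) of tumor cells. At least 2 of the 5 had so in 8 control and 5 tumor cells, and 3 or more in 4 and 0. Over the 28 pairs of the 8 genes the correlation across control cells ran from -0.12 to 0.64 (median 0.13). Without well 32 it ran from -0.14 to 0.30 (median 0.05), and across tumor cells from -0.25 to 0.18 (median -0.02). These values describe cells that share depth and plate, and in sparse counts such weak values are no finding.

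Among other genes of vesicle release and membrane traffic few passed the 2-fold rule, and few did among all features, 6.9% higher and 7.57% lower. Of 17 genes of this list, 8 reached 5 CPM, 1 was higher and 0 were lower in tumor cells. The higher one was unc-13, a vesicle priming factor, at 43.2 and 48.8 CPM on the control and 123.2 and 101.8 CPM on the tumor plates. The SNAREs of other membranes gave 0 higher and 2 lower of 16, Syx13 of endosomes (57.99 and 23.4 CPM in control and tumor) and Gos28 of the Golgi (26.7 and 11.6 CPM). Of 9 measured genes of vesicle recycling 1 was lower. This was stnA, an endocytic adaptor, with 3795 reads in 40 control cells and 0 reads in tumor cells, at least 984-fold lower when the tumor group is set to 3 reads. With 14.4 CPM in control cells, stnA reached the minimum level only through that group. Nothing is read from its call against the other features.

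Lists of few measured genes are hard to set against those shares, and 0 calls in them is no result about the list. None of 3 measured genes of the active zone and calcium channel list, of 1 measured ion channel and of 10 measured genes of the neurite cytoskeleton was called in either direction. None of the 10 matched genes of transmitter synthesis and transport reached 5 CPM. Of 12 measured genes of adhesion and guidance 1 was higher, the teneurin Ten-m (8.95 and 39.5 CPM), and 2 were lower, the cell adhesion molecules Fas3 (84.8 and 16.98 CPM) and Fas2 (23.8 and 7.30 CPM). Of 6 measured RNA-binding genes 2 were higher and 0 lower, elav at 97.2 and 247 CPM and fne, a relative of elav, at 17.3 and 103.5 CPM.

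Neuronal transcripts were thus present beside these genes in both groups. The 6 matched neuron markers summed to 132.97 and 103.9 CPM on the control plates and 340 and 366 CPM on the tumor plates, nearly all of it elav and fne. Per cell their sum ran from 0 to 2766 CPM in control and 0 to 3744 CPM in tumor cells, while VGlut was read in 1 tumor cell only, which gave plate 3 a level of 1.73 CPM, and Gad1 was at 0.0832 CPM or less on every plate. Of the 9 glia markers, which summed to 571 CPM in control and 378 CPM in tumor cells, the defining genes repo and alrm were at 0.0875 CPM or less. The other markers of that list included nrv2, read in 100% of control cells, at 448 and 174.3 CPM in the control and tumor groups, Eaat1 at 89.7 and 146.9 CPM, loco at 30.95 and 45.9 CPM, and gcm at 2.17 and 9.35 CPM, the last with 19.8 CPM on plate 4 and 0 on plate 3. No gene of 14 markers of other tissues reached 5 CPM in the mean of the groups. Cells with an elav read were 94.4% of control and 84.9% of tumor cells, and they held 92.4% of the nSyb, 100% of the CadN, 90.3% of the futsch and 99.97% of the Rbp6 reads of control cells. In tumor cells they held 99.3% of the nSyb, 99.9% of the CadN, 71.8% of the futsch and 100% of the Rbp6 reads. There futsch stood at 13.9 CPM (12.6 to 15.3) in the 28 cells without an elav read and at 6.06 CPM (5.70 to 6.44) in the others. Without the cells under 100 CPM of dpn and mira the log2 ratio was -0.17 for nSyb, 3.47 for futsch and -4.83 for Rbp6.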

How the data were processed

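Single sorted cells were amplified with SMART-Seq2 chemistry over 18 PCR cycles without molecular identifiers, per the labels' protocols. The authors deposited whole-number read counts for each feature and cell, unnormalized as the differing cell totals show. BDGP6 and dm6 appear in the submitters' processing notes, whereas the aligner, the counter and whether strand was used were not given in the sources used here. Coordinates, exonic lengths and overlaps came from Ensembl release 115 on BDGP6. Of the 19 wells left out, 12 were control and 7 tumor.

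The 8 genes, the other gene lists and the type II-like rule were chosen with earlier results of these data known. All 8 genes are named, with up to 3 genes by size of ratio from each other list, and the 3 features most like a member seen in 25% or more of both groups' cells. The wells singled out, their comparison and the limit of 100 CPM of dpn and mira were chosen after their values were seen.

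Reads were summed over kept cells, 262976815 in control and 204489558 in tumor, and scaled to CPM. Levels carry exact Poisson intervals and shares exact Clopper-Pearson intervals. Shares were also taken after thinning each cell to 100000 reads at random. No doublet caller was run on these singly sorted cells. The steps were tested on simulated reads. Alternatives covered cell weight, scaling by edgeR's TMM, by median of ratios or by totals that leave out the 100 most abundant features, cell filters, plates and thinning. TMM factors came from edgeR 4.0.16 under R 4.3.3, and all else from scipy 1.17.1, pandas 2.3.3, numpy 2.4.6 and matplotlib 3.10.9 under Python 3.11.15. No sequences are printed.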

Additional observations from a re-analysis of the deposited data

Results flagged for a closer look

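Of the 8 genes, 3 had a level in wells 80 and 88, which the depth filter left out, whose interval lay above that of the kept control cells, as 1.91% of all 14219 features did. Over these 8 wells Syt1 stood at 955.7 CPM (810 to 1120), against 16.9 CPM (16.4 to 17.4) in the kept control cells. nSyb stood at 74.95 CPM (38.7 to 130.9), from 12 reads in 6 of the wells, against 3.32 CPM (3.10 to 3.55). brp stood at 43.72 CPM (17.6 to 90.1), from 7 reads in 3 wells that were all on tumor plates, against 0.616 CPM (0.525 to 0.719). The 8 wells held 160097 reads in all, so nSyb and brp rest on few reads. Cadps, CadN, futsch, Rbp6 and Syx1A were not above the kept control cells by this measure. By a stricter rule that nSyb and brp did not meet, 20 features had a read in each of the 8 wells and were at least 10-fold above the kept cells. The labels do not say what these wells held, and the cause was not tested.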

How the results depend on the processing

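No paired analysis was possible because each group is 1 pool and no result comes from a test. Cadps kept its direction under all 16 alternatives that gave a value (log2 ratio -4.65 to -2.81). So did Syt1 (0.09 to 0.85), futsch (0.55 to 3.95) and brp (-6.06 to -3.13) under all that gave them a value. For brp this rests on 7 reads in the kept tumor cells. Syx1A, CadN and nSyb took both signs. The median log2 ratio of all 8 genes was -1.15, and it was 0.39 without plate 1 and -0.053 without cells under 100 CPM of dpn and mira, an alternative chosen after seeing the data, as was the comparison of type II-like cells and that of mean reads per cell. The number of genes called lower was 2, and it was 1 without the top cell of each plate, without plate 1, without cells under 100 CPM of dpn and mira (Rbp6 fell under the minimum level in each) and without plate 2 (Cadps did). Within type II-like cells of both groups Rbp6 reversed to a log2 ratio of 0.31, and no median was taken, since nSyb and brp had no read in the 8 control cells. The median over cells gave a value for Syt1 (0.74) and Syx1A (-0.19) only, since Cadps had a median of 0 in tumor cells and the other genes had one in both groups. Without a minimum level 3 genes were lower, the third being brp with 1 and 6 reads on the tumor plates. The share of all features called without that level was not taken, so nothing is read from this count. Of the alternative values of the shares, 80 stayed inside the interval of the main value and 32 did not. The shares at 500000 reads rest on the cells deep enough for it, and a cell with 0 reads may still hold a transcript of low level.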
